A study of Mus musculus with 6 samples.

Results

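The genes described here are 34 liver genes of glucose production, glycolysis, glycogen turnover and pyruvate entry, chosen by gene name from a table of 48699 gene rows. All 34 were found, with 1 row each, and all 34 passed the filter on low values, so each was tested. They fall into 6 genes of gluconeogenesis, 12 of glycolysis, 2 of hexose entry, 11 of glycogen turnover and 3 of pyruvate entry. The samples were livers of adult male C57BL/6 mice aged 10 to 12 weeks and fasted for 8 to 10 hours overnight. The column labels of both groups name chow, read here as the diet. The control group held 3 mice with the genotype Fxrfl/fl Shpfl/fl, homozygous for floxed alleles of FXR (gene Nr1h4) and SHP (gene Nr0b2). The other group held 3 double knockout mice, hepatocyte-specific Fxr-/- Shp-/-. FXR is the bile acid receptor and SHP an orphan nuclear receptor that represses transcription. The Cre driver of the deletion is not named in the labels, other cells of the liver are meant to keep both genes, and no fed animals were analysed here. Expression was measured as FPKM, fragments per kilobase of transcript scaled to the mapped fragments of a library, so levels of different genes are comparable per length.

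During a fast the liver makes glucose from lactate, glycerol and amino acids by gluconeogenesis and releases it from glycogen, while after a meal it takes up glucose, stores glycogen and runs glycolysis. The irreversible steps of the opposing routes are carried out by different enzymes, whereas the middle enzymes of glycolysis work in both directions. Glycogen synthase and phosphorylase are switched by phosphorylation, and the phosphatase PP1 is brought to glycogen by targeting subunits of the Ppp1r3 family. FXR and SHP have both been studied as regulators of hepatic glucose metabolism, so the comparison asks which of these transcripts depend on the receptors in the fasted liver.

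Library facts that bear on these genes were few. From the steps between low FPKM values, 1 fragment on a transcript of 1 kb was worth between 0.0707 and 0.0758 FPKM in the 6 libraries, so their depths were close. Nr0b2 ranged from 14.7 to 18.7 FPKM in controls, against reached 0.293 FPKM at most after deletion, and Nr1h4 ranged from 59.8 to 71.8 and from 15.5 to 22.0 FPKM. Of the 6 hepatocyte markers 5 had negative fold changes and 0 passed the threshold. Alb, the albumin gene, was the most abundant gene, at 37008 to 43645 FPKM in controls and, without overlap, 17009 to 34609 FPKM after deletion (log2 fold change -0.77, limma adjusted p = 0.381). Control replicate 3 stood apart from the other controls (correlation of log2 values across genes of 0.952 and 0.955, against 0.983 between those). Results that rest on it are therefore given with and without it.

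None of the 34 genes passed the threshold (adjusted p under 0.05, limma with Benjamini-Hochberg adjustment over 11810 genes). The background was small too: 0.313% of the tested genes were called, 37 in all (0.169% higher and 0.144% lower). An unadjusted limma p under 0.05 was found for 4 members, Pklr, Phka2, Phkb and Pdhb, where 14.9% of all tested genes had one. In 4 members (Pklr and Phka2 higher, Ldha and Pdhb lower) the groups had no overlap, against 22.9% of all tested genes (11.3% higher, 11.6% lower). Neither count was above its background, and the count by unadjusted p was near it. The log2 fold change, double knockout minus control on the log2(FPKM + 1) scale, was positive in 16 members and negative in 18, where 49.2% of all tested genes were positive. Its median was -0.03, beside -0.01 over all tested genes. The authors' deposited table called 1 of the 34, Ppp1r3g (q = 0.00121), as lower, where it called 4.58% of the genes it tested and 1.73% as lower.

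**Figure D1:**
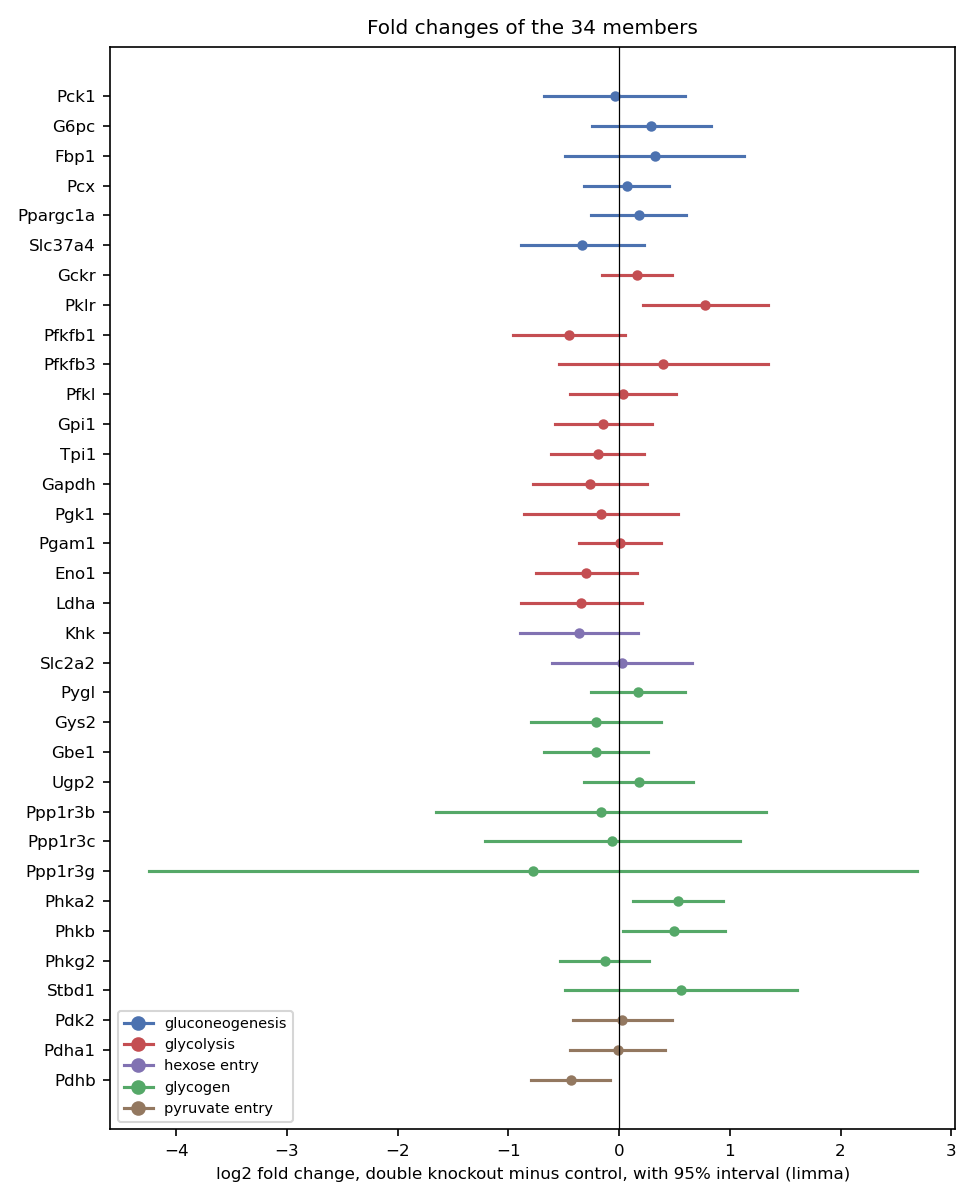
Log2 fold change of each member (dots) with its 95% limma interval (lines), by arm of the pathway. The intervals of Pklr, Phka2, Phkb and Pdhb lie off 0, none passed the adjusted threshold, and the interval of Ppp1r3g, from -4.25 to 2.69, is the widest.

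In gluconeogenesis 0 of 6 members passed the threshold, 4 fold changes were positive and 2 negative, and the median was 0.12. Pck1, the cytosolic PEP carboxykinase that turns oxaloacetate into phosphoenolpyruvate (ENSMUSG00000027513.11, chromosome 2, 173153048 to 173159273, GRCm38), was the most abundant member of all. It measured 1205, 1629 and 1639 FPKM in the controls, against 1439, 1064 and 1931 FPKM after deletion. The group ranges overlapped almost wholly, with the lowest and the highest value both in knockout libraries. Its log2 fold change was -0.04 (SE 0.27, 95% interval -0.68 to 0.60, limma adjusted p = 0.958), so a change of up to about that interval is not excluded by 3 mice per group. The promoter of Pck1, shown because its cAMP response element is the textbook site of fasting induction, covers 250 bases before to 50 after the RefSeq start (chr2:173152823-173153122, plus strand, GRCm38.p6). Capitals mark the 5 letters TGACG, read here on the minus strand, 90 to 86 bases before the start.
Pck1: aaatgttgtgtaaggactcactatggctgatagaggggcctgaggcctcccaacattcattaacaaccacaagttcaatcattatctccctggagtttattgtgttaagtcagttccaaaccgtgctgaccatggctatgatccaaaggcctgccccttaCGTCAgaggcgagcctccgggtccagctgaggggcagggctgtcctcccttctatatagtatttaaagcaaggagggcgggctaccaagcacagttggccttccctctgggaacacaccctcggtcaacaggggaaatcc
These letters, searched on both strands, were in 20.8% of the 32851 promoters of that length and in 15 of the 45 windows of members (33.3%).

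G6pc, the catalytic subunit of glucose-6-phosphatase that frees glucose for export, measured 171, 149 and 257 FPKM in the controls. In the knockouts it measured 246, 245 and 199 FPKM. The ranges overlapped only through control replicate 3, the highest of all 6 libraries. Its log2 fold change was 0.29 (SE 0.23, 95% interval -0.25 to 0.83, limma adjusted p = 0.577), and 0.52 without that library (limma adjusted p = 0.139). Fbp1, which removes a phosphate from fructose-1,6-bisphosphate, had a similar layout: 579, 490 and 1183 FPKM in controls, against 828, 742 and 1067 FPKM after deletion. Control replicate 3 was again the highest, and the 3 knockouts lay above the other controls. The log2 fold change of Fbp1 was 0.32 (SE 0.34, limma adjusted p = 0.691) and without control replicate 3 it was 0.70 (limma adjusted p = 0.130), still not past the threshold. Without control replicate 2 the fold changes of Fbp1 and G6pc were smaller, 0.069 and 0.13.

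Slc37a4, which carries glucose-6-phosphate into the endoplasmic reticulum to meet G6pc, leaned the other way. It measured 105, 131 and 78.4 FPKM in controls, against 96.0, 63.9 and 87.6 FPKM after deletion (log2 fold change -0.33, SE 0.24, limma adjusted p = 0.538). Relative to G6pc, Slc37a4 was 0.614, 0.879 and 0.306 in the controls and 0.390, 0.260 and 0.441 in the knockouts, so control replicate 3 lay among the knockouts. Pcx, the mitochondrial pyruvate carboxylase, varied least of the arm, between 113 and 149 FPKM in all 6 libraries (log2 fold change 0.07, SE 0.16). Ppargc1a, a coactivator of gluconeogenic genes, had the lowest mean over the 6 libraries of any member, although Ppp1r3g was lower in 4 of them. It measured 1.20 to 1.64 FPKM in controls, against 1.36 to 2.34 FPKM after deletion. That corresponds to roughly 103 to 213 fragments per library, and its log2 fold change was 0.18 (SE 0.18).

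**Figure D2:**
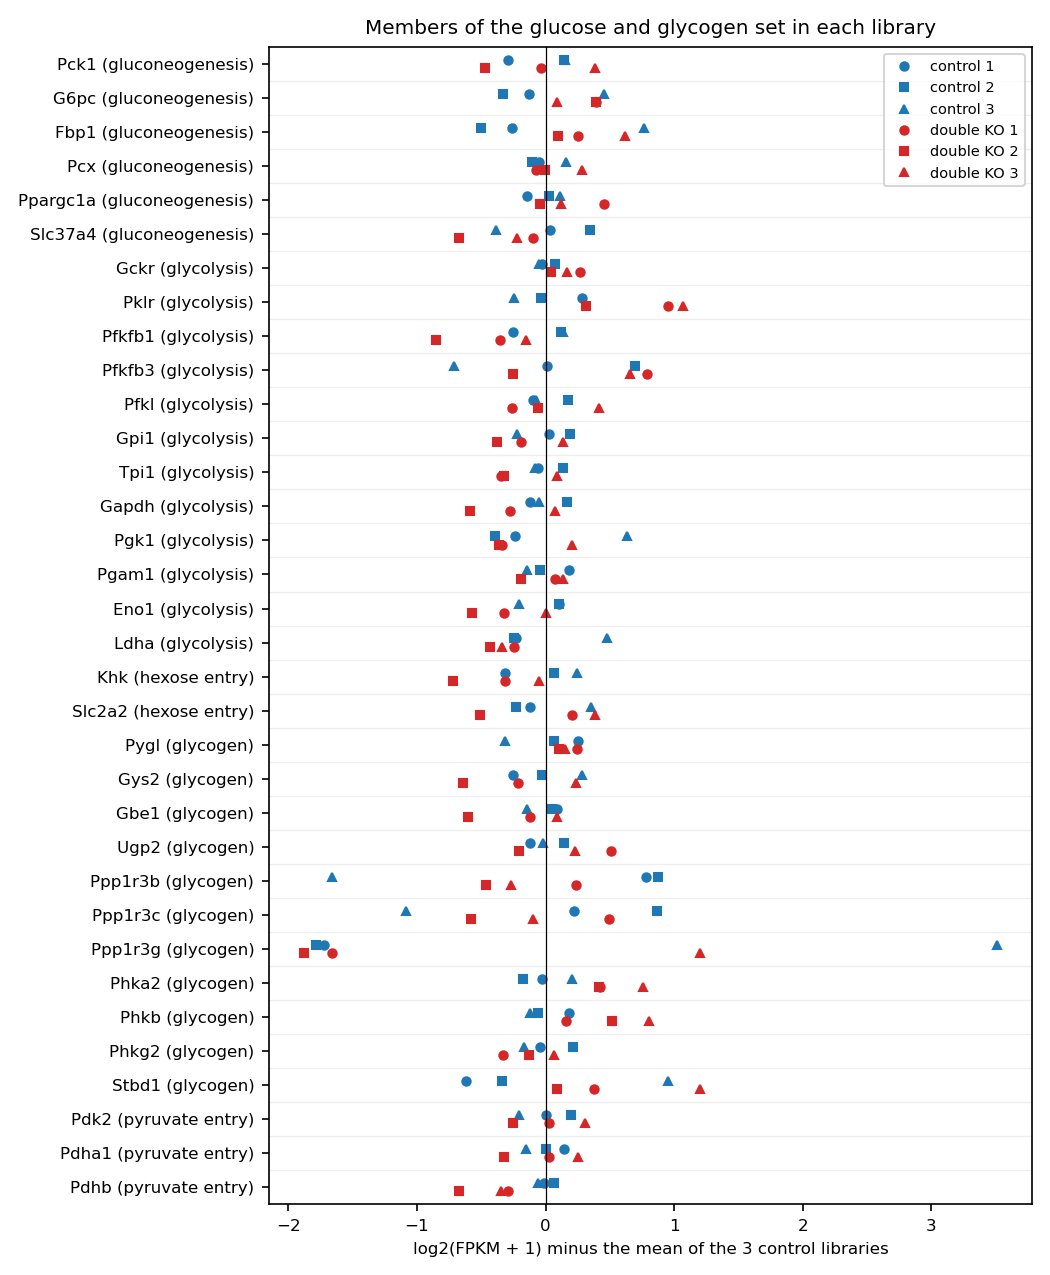
Each member in each library, as log2(FPKM + 1) minus the mean of the 3 controls (blue controls, red double knockouts, with 1 marker shape per replicate number). Most members lie within 1 log2 unit of the control mean, and Ppp1r3g, Ppp1r3b, Ppp1r3c and Stbd1 spread most, with control replicate 3 at or near one end.

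Glycolysis held the member with the largest difference between groups relative to its error, Pklr. It encodes the liver and red cell pyruvate kinase, the last step of glycolysis (ENSMUSG00000041237.12, chromosome 3). Pklr measured 56.6, 45.4 and 38.9 FPKM in controls, against 90.8, 57.8 and 98.7 FPKM after deletion. The groups did not overlap, but knockout replicate 2 lay only just above control replicate 1. Its mean was 1.76 times higher in the knockouts (log2 fold change 0.78, SE 0.24, 95% interval 0.22 to 1.34), with an unadjusted limma p of 0.0132 and a limma adjusted p of 0.226. The authors' deposited table gave it q = 0.0983. Of its annotated exon bases, 22.0% lie opposite exons of Hcn3. Whether the counting used strand is not stated in the labels, and Hcn3 itself was under the filter of 0.5 FPKM. RefSeq lists 2 starts for Pklr, and the window of the downstream one, which precedes the liver-type first exon, is printed because it holds the known glucose-sensing element (chr3:89136373-89136672, plus strand, GRCm38.p6).
Pklr: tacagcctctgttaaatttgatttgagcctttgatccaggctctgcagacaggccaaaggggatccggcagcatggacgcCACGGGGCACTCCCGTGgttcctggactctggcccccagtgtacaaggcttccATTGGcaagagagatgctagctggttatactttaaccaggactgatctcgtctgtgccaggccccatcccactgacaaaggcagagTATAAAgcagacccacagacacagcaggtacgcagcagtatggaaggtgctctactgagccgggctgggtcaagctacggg
Capitals mark the carbohydrate response element (170 to 154 bases before the start), a CCAAT box on the minus strand (117 to 113 before) and a TATAAA box (31 to 26 before). The pattern searched for this element, on both strands, was written from the half-sites of Pklr itself, so its match here was fixed in advance. It was found in 1 of 32851 promoters, this one, which says nothing about other forms of the element elsewhere. TATAAA was found in 13.6% and CCAAT in 37.4%.

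The other 11 glycolytic members gave 4 positive and 7 negative fold changes, and the arm of 12 had a median of -0.15. Gckr, a regulatory protein of sugar metabolism in hepatocytes, was the steadiest member of the set, at 52.6 to 57.6 FPKM in controls, against 56.3 to 66.0 FPKM after deletion. Pfkl, the liver phosphofructokinase, was at 5.51 to 9.43 FPKM over all libraries (log2 fold change 0.03, SE 0.20). The enzymes that make and break fructose-2,6-bisphosphate, an activator of phosphofructokinase, had fold changes of opposite sign with all libraries. Pfkfb1, the liver form, measured 24.5, 32.1 and 32.4 FPKM in controls, against 22.8, 15.9 and 26.4 FPKM after deletion (log2 fold change -0.45, SE 0.22, limma adjusted p = 0.376). Pfkfb3, the inducible form, measured 4.47, 7.80 and 2.32 FPKM and 8.39, 3.55 and 7.57 FPKM (0.40, SE 0.40, limma adjusted p = 0.670). For both genes the groups overlapped. Without control replicate 3 the log2 fold changes were -0.38 for Pfkfb1 and 0.04 for Pfkfb3 (limma adjusted p = 0.356 and 0.950). The positive value of Pfkfb3 thus rested mostly on that library.

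The reversible steps had mostly lower means in the knockouts, without passing the threshold. Gapdh, the glyceraldehyde phosphate dehydrogenase often used as a reference gene, measured 799, 974 and 840 FPKM in controls, against 715, 578 and 915 FPKM after deletion (log2 fold change -0.26, SE 0.22). Tpi1, Eno1 and Gpi1, the triose phosphate isomerase, enolase and glucose phosphate isomerase, had log2 fold changes of -0.19, -0.30 and -0.14. Pgam1, phosphoglycerate mutase, was level at 32.9 ± 4.04 and 33.1 ± 4.01 FPKM (SD, n = 3 each). Pgk1, phosphoglycerate kinase, measured 96.7, 86.7 and 178 FPKM and 90.2, 88.7 and 132 FPKM, with the high values in replicate 3 of either group. Under quantile normalization Gpi1, Tpi1 and Pgk1 changed sign (0.02, 0.03 and 0.04), so no direction is given for the reversible steps as a group. Several of these genes have processed pseudogenes elsewhere in the genome, and the assignment of shared reads is not stated in the labels.

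Ldha, which interconverts pyruvate and lactate, separated the groups by a hair. It measured 495, 491 and 809 FPKM in controls, against 489, 430 and 459 FPKM after deletion. The nearest values, 491 and 489 FPKM, all but touched, and the mean difference rested mostly on control replicate 3. With that library the log2 fold change of Ldha was -0.34 (SE 0.23, limma adjusted p = 0.517) and without it -0.10 (limma adjusted p = 0.712). Of the hexose entry genes, Slc2a2, the GLUT2 transporter of the hepatocyte membrane, was at 74.9 to 113 FPKM in controls, against 61.7 to 115 FPKM after deletion (log2 fold change 0.03, SE 0.27). Khk, fructokinase, measured 181, 235 and 267 FPKM and 180, 136 and 217 FPKM (-0.36, SE 0.23, limma adjusted p = 0.488).

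The glycogen arm had 5 positive and 6 negative fold changes with a median of -0.06, and 0 of its 11 members passed the threshold. Ugp2, which makes UDP-glucose, was its most abundant member. It measured 186, 224 and 200 FPKM in controls, against 289, 176 and 239 FPKM after deletion (log2 fold change 0.18, SE 0.21). Gys2, the liver glycogen synthase, measured 65.4, 76.9 and 95.2 FPKM and 67.2, 49.8 and 92.2 FPKM (-0.21, SE 0.25). Gbe1, the branching enzyme, ranged from 25.1 to 41.3 FPKM, and Pygl, the liver phosphorylase, from 93.5 to 139 FPKM. The ratio of Pygl to Gys2 was 2.13, 1.59 and 0.981 in the controls and 2.06, 2.53 and 1.41 in the knockouts. It was lowest in control replicate 3, and the groups overlapped.

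The subunits of phosphorylase kinase, which activates phosphorylase, had different fold changes. Phka2, the liver regulatory α subunit, measured 3.79, 3.34 and 4.63 FPKM in controls, against 5.55, 5.53 and 7.26 FPKM after deletion. The groups were apart in every library, and the mean was 1.56 times higher (log2 fold change 0.53, SE 0.17, 95% interval 0.13 to 0.94, limma unadjusted p = 0.0169 and adjusted p = 0.240). The authors' deposited table gave Phka2 q = 0.133. Phkb, the β subunit, measured 9.08, 7.54 and 7.17 FPKM and 8.92, 11.7 and 14.5 FPKM (0.49, SE 0.20, limma unadjusted p = 0.0391 and adjusted p = 0.313). Its groups overlapped at knockout replicate 1. Phkg2, the catalytic γ subunit, was at 14.9 to 19.8 and 13.2 to 17.8 FPKM (-0.13, SE 0.17). Exons of Ccdc189 lie opposite 21.9% of the exon bases of Phkg2.

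The PP1 targeting subunits and Stbd1, a protein that tethers glycogen to membranes, were the most variable members within groups. Within-group SDs on the log2 scale were 2.47 for Ppp1r3g, 1.05 for Ppp1r3b, 0.80 for Ppp1r3c and 0.72 for Stbd1, at the 99.8, 98.8, 97.5 and 96.7 percentiles of all tested genes. Ppp1r3g (ENSMUSG00000050423.10, chromosome 13) measured 0.419, 0.361 and 52.7 FPKM in the controls, against 0.485, 0.274 and 9.81 FPKM after deletion. It was near its low level in 4 libraries, with about 9 to 16 fragments each, and high in replicate 3 of either group, about 1727 and 328 fragments. The spread over the 6 libraries was 192-fold, so the group means, 17.8 ± 30.2 and 3.52 ± 5.44 FPKM (SD, n = 3 each), each rest on 1 mouse. In limma its log2 fold change was -0.78 (SE 1.48, adjusted p = 0.833), and without control replicate 3 it was 0.98 (limma adjusted p = 0.528). The call in the authors' deposited table (17.8 and 3.52 FPKM, q = 0.00121) thus sets 1 high control against 1 less high knockout.

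Ppp1r3b, the main targeting subunit of liver, ran opposite to Ppp1r3g in control replicate 3. It measured 80.5, 85.9 and 14.0 FPKM in controls, against 54.7, 33.4 and 38.3 FPKM after deletion. Control replicate 3 was the lowest of all libraries and the other controls were the highest. With all libraries the log2 fold change of Ppp1r3b was -0.16 (SE 0.64, limma adjusted p = 0.924); without control replicate 3 it was -0.99 (limma adjusted p = 0.0718), the closest of any member to the threshold in that comparison. Ppp1r3c measured 27.6, 43.7 and 10.6 FPKM and 33.6, 15.4 and 21.9 FPKM, and it too was lowest in control replicate 3. Ppp1r3g made up 67.3% of the summed FPKM of the 6 family genes Ppp1r3b to Ppp1r3g in control replicate 3, 13.4% in knockout replicate 3 and at most 0.539% in the other libraries. Ppp1r3b made up 17.9% in control replicate 3 and 52.5% to 71.9% elsewhere.

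The promoters of Ppp1r3g (chr13:35967656-35967955, plus strand) and Ppp1r3c (chr19:36736555-36736854, minus strand, both GRCm38.p6 from RefSeq) are shown because these family members were high and low in the same library. Capitals mark TGACG, the E-box CACGTG and the CCAAT box, on either strand.
Ppp1r3g: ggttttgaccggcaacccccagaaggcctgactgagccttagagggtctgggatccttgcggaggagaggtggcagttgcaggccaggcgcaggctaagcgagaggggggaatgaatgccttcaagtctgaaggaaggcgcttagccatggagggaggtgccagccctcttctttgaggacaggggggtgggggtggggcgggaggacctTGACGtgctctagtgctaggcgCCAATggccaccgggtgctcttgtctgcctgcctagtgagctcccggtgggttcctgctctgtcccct
Ppp1r3c: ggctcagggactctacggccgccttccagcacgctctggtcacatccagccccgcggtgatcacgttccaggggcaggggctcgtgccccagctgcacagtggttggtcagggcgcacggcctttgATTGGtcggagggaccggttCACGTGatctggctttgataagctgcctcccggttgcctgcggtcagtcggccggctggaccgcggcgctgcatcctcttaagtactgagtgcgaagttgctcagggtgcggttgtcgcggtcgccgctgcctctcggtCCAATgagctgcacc
Ppp1r3g holds TGACG (40 to 36 bases before the start) and CCAAT (18 to 14 before). Ppp1r3c holds an E-box (104 to 99 before) and 2 CCAAT boxes (124 to 120 before and 36 to 40 after), and no TGACG. The E-box letters were in 7.15% of all promoters and in 6 of the 45 windows of members (13.3%). The consensus FXR inverted repeat with a spacer of 1 base, searched on both strands, was in 3 of 32851 promoters and in 0 of the 45 member windows, which says only that its letters are not in these 300 bases. Ppp1r3b and Gys2 had no entry.

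Stbd1 measured 32.9, 40.3 and 100 FPKM in controls, against 66.5, 54.5 and 119 FPKM after deletion, highest in replicate 3 of either group. Its log2 fold change was 0.56 (SE 0.45, limma adjusted p = 0.582) and without control replicate 3 it was 1.03 (limma adjusted p = 0.133). The summed FPKM of 15 immediate-early genes was high in the same libraries as Ppp1r3g: it was 769.7 in control replicate 3, 178.3 in knockout replicate 3 and 42.3 to 60.2 in the other 4 libraries. The neutrophil marker sum was 50.8 in control replicate 3, 17.8 in knockout replicate 3, 10.8 in knockout replicate 2 and at most 1.98 elsewhere, with Mpo at no more than 0.0596 FPKM. Their part in these values was not tested.

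**Figure D3:**
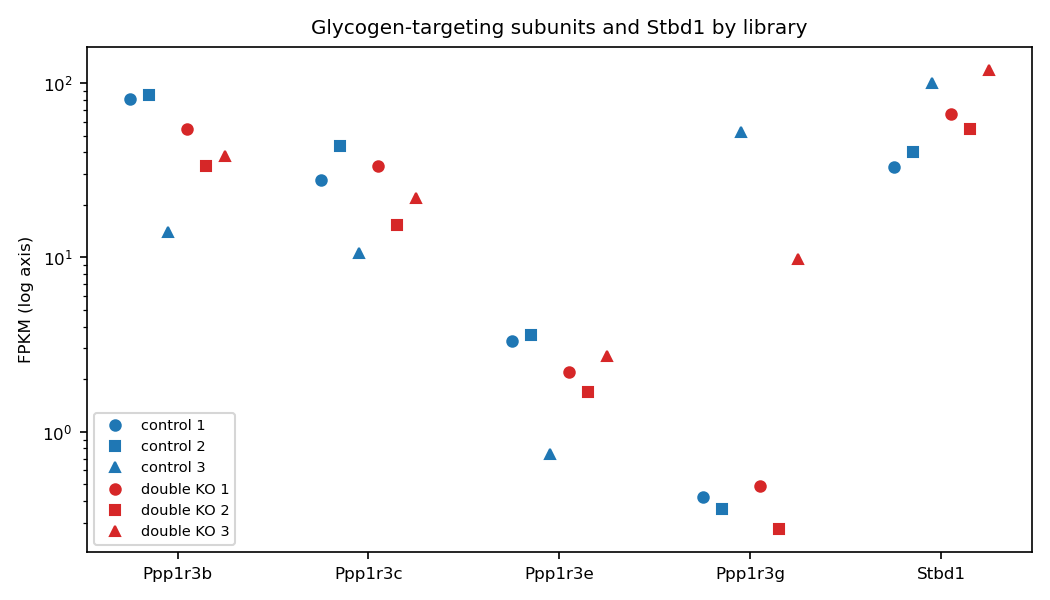
FPKM on a log axis of the glycogen-targeting subunits and Stbd1 in each library (blue controls, red double knockouts). Control replicate 3 (blue triangle) is the lowest library for Ppp1r3b, Ppp1r3c and Ppp1r3e and the highest for Ppp1r3g, at 52.7 FPKM.

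At the entry of pyruvate into mitochondria, Pdhb was lower in every knockout library while its partner was not. Pdhb encodes the β subunit of the E1 enzyme of pyruvate dehydrogenase (ENSMUSG00000021748.8, chromosome 14, 8165996 to 8173025). It measured 80.1, 84.5 and 77.6 FPKM in controls, against 65.6, 50.3 and 63.3 FPKM after deletion. The mean was 1.35 times lower, with a log2 fold change of -0.44 (SE 0.15, 95% interval -0.80 to -0.08, limma unadjusted p = 0.0234 and adjusted p = 0.270). The authors' deposited table gave Pdhb q = 0.305. Pdha1, the α subunit, measured 56.5, 51.2 and 45.7 FPKM and 52.0, 40.5 and 61.0 FPKM (log2 fold change -0.01, SE 0.19). The ratio of Pdha1 to Pdhb was 0.706, 0.606 and 0.589 in the controls and 0.793, 0.806 and 0.963 in the knockouts, so this ratio did not overlap between groups. Its smallest possible exact permutation p is 0.1 with 3 against 3, and the ratio was chosen after the values were seen. Pdk2, a kinase that inactivates the enzyme, was at 45.5 to 60.5 and 43.8 to 65.3 FPKM (0.03, SE 0.19).

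**Figure D4:**
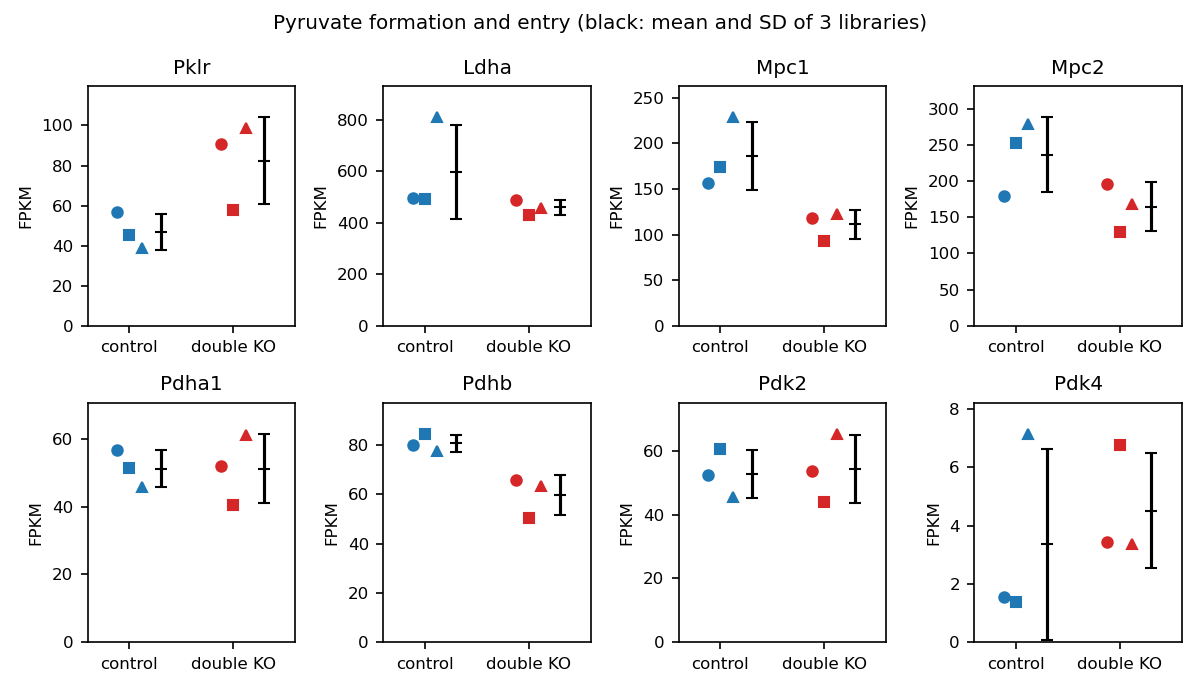
FPKM of genes of pyruvate formation and entry, 1 panel per gene, with each library as a marker and the mean and SD of 3 libraries in black. Pklr is higher and Mpc1 and Pdhb are lower in all 3 knockouts, and Ldha differs mainly through control replicate 3 at 809 FPKM.

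Other genes of the same pathways, 79 in a list written for this comparison, gave a like picture. Of these, 65 passed the filter and 0 passed limma's threshold, with 35 positive and 30 negative fold changes and a median of 0.02. An unadjusted limma p under 0.05 was found for 9, where 14.9% of all tested genes had one. The groups did not overlap in 14 (7 higher and 7 lower), where 22.9% of all tested genes did not. Of the list, 4 were called in the authors' deposited table, which called 4.58% of all genes it tested, so these counts are near the background. Gpd2, the mitochondrial glycerol phosphate dehydrogenase, measured 7.50, 5.13 and 4.94 FPKM in controls, against 13.2, 11.04 and 8.84 FPKM after deletion (log2 fold change 0.81 with SE 0.21, limma adjusted p = 0.177; q = 0.00406 in the authors' deposited table). It was past the limma threshold with library weights (adjusted p = 0.0476), as was Gsk3b, a kinase of glycogen synthase chosen after its values were seen (0.0415). With those weights 563 of all 11810 tested genes were called, and 2 of the 65. Mpc1, a subunit of the mitochondrial pyruvate carrier that acts just before Pdhb, measured 157, 174 and 229 FPKM and 118, 93.5 and 123 FPKM (-0.73, SE 0.20, limma adjusted p = 0.189; q = 0.0346 in the authors' deposited table). The groups of Mpc1 did not overlap. Slc16a7, a monocarboxylate transporter, measured 13.2, 20.8 and 31.1 FPKM and 10.7, 7.85 and 15.2 FPKM (-0.86, limma adjusted p = 0.302; authors' deposited q = 0.0236). Nr3c1, the glucocorticoid receptor, measured 9.88, 7.55 and 9.97 FPKM and 12.4, 13.1 and 19.0 FPKM (0.63, limma adjusted p = 0.238; authors' deposited q = 0.0385).

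The liver isozymes dominated their families in both groups. Pck1 was at least 99.85% of PEP carboxykinase FPKM, Fbp1 at least 99.9% of fructose-1,6-bisphosphatase and G6pc between 97.5% and 98.8% of glucose-6-phosphatase. Pygl was between 98.25% and 99.5% of phosphorylase and Gys2 between 98.9% and 99.8% of glycogen synthase. Pyruvate kinase was less exclusive: Pklr made up 94.7%, 93.1% and 86.1% in controls and 96.4%, 90.4% and 94.7% in knockouts, with Pkm, the form of most other cells, as the rest. Phosphofructokinase was mixed, with Pfkl between 46.6% and 59.7% and the muscle form Pfkm between 36.3% and 49.3%. Skeletal muscle markers summed to at most 0.944 FPKM, with Ckm, Myh4 and Pvalb listed at 0, and Pgam2, the muscle phosphoglycerate mutase, was listed at 0 in all libraries. The shares of these genes overlapped between the groups. In the family that makes and breaks fructose-2,6-bisphosphate they did not: Pfkfb1 made up 71.3%, 73.6% and 86.4% in controls and 64.7%, 66.8% and 65.8% after deletion, a difference picked out after the values were seen and not tested.

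The knockout libraries differed among themselves. Knockout replicate 2 was the lowest library for 17 of the 34 members (50%), where it was lowest for 22.3% of all tested genes, and the highest for 0. Knockout replicate 3 was the highest library for 10 members (29.4%, against 15.2% of all tested genes) and the lowest for 0. The FPKM of the 34 members summed to 5317, 5969 and 6912 in controls and to 5821, 4722 and 6957 in knockouts, so the groups overlapped. Over all gene rows the summed FPKM was also lowest in knockout replicate 2, at 610618, against 688182 to 841745 in the other libraries. A low sum in that library was thus not particular to the members. Markers of other cells were high in knockout replicate 2. All 6 macrophage markers were highest there (sum 224.1 FPKM, against 86.6 and 92.9 in the other knockouts and 48.8 to 133.7 in controls), as were 5 of 6 endothelial and 4 of 6 stellate cell markers. The hepatocyte marker sum was lower in every knockout than in any control (42130, 29822 and 50370 FPKM against 56769, 68559 and 59034 FPKM), and lowest in knockout replicate 2. Alb made up most of this sum in every library, and it alone of the 6 markers had no overlap between groups. Tat had a positive log2 fold change (0.21). Apoa1, Ttr, Serpina1c and Hnf4a had negative ones with overlapping groups, so the sum does not show a shift of these markers as a set. In bulk liver, fewer cells of a type and less RNA per cell cannot be told apart, and their part in the members' values was not tested. Without knockout replicate 2 no member passed limma's threshold, and the median log2 fold change over the 34 was 0.10, while without knockout replicate 3 it was -0.15.

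**Figure D5:**
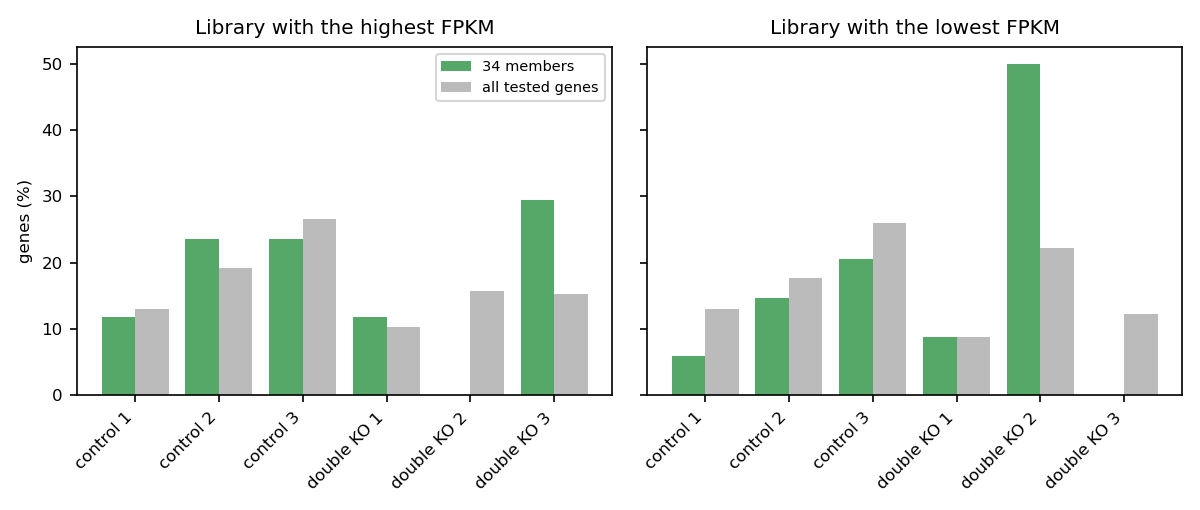
Share of genes, in percent, whose highest (left) or lowest (right) FPKM falls in each library, for the 34 members (green) and all tested genes (grey). Knockout replicate 2 holds the lowest value of 50% of the members and 22.3% of all tested genes.

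Without control replicate 3, 10 members had no overlap between groups, including Pklr, Phka2, Ldha and Pdhb, which had none with all libraries either. Of the 10, 5 were higher (G6pc, Fbp1, Pklr, Phka2, Stbd1) and 5 lower (Slc37a4, Eno1, Ldha, Ppp1r3b, Pdhb), and 0 passed limma's threshold. The background in that comparison was 44.7% of tested genes without overlap (21.6% higher, 23.1% lower) and 2.05% called, so 10 of 34 is below it. Markers of liver zones are given beside the members. Gluconeogenesis is strongest around the portal vein, and all 6 periportal markers had negative fold changes. In 5 of them the groups did not overlap, where 11.6% of all tested genes were lower without overlap. The groups of Sds overlapped. Hal, histidine ammonia lyase, was at 165.5 FPKM on average in controls and 78.5 FPKM after deletion (log2 fold change -1.09, limma adjusted p = 0.166). None of the 6 was past the threshold with all libraries, and Cyp2f2 and Pigr were without control replicate 3 (limma adjusted p = 0.0256 and 0.0197). In at least 1 alternative setting Hal, Gls2 and Sds were past it too (lowest limma adjusted p = 0.0133, 0.0278 and 0.0133). Each of these values is the lowest over the 18 settings. Sds passed the threshold only without replicate 3 of both groups, a setting chosen after the data were seen. Over the settings the highest limma adjusted p of Hal, Gls2 and Sds was 0.488, 0.528 and 0.723. Over all genes, the settings called between 2 and 563 genes, against 37 with the main fit. The authors' deposited table called Cyp2f2, Pigr and Gls2 (q = 0.00999, 0.0112 and 0.0241), where it called 1.73% of the genes it tested as lower. The gluconeogenic members Pck1, G6pc and Fbp1, also known as periportal, had log2 fold changes of -0.04, 0.29 and 0.32. Of the 6 pericentral markers 4 were positive, with 0 past the threshold.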

How the data were processed

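The authors deposited FPKM for 48699 genes in each of 6 liver RNA libraries (stranded mRNA kit, per the labels' protocols). The authors also deposited a comparison with group FPKM, p-values and q-values, in Cuffdiff's layout per the file headers. Tools listed, without role or order, in the submitters' processing notes are STAR 2.4.2a, Cuffdiff 2.2.1, Picard 1.119, Trimmomatic and bcl2fastq 2.17.1.14, with the build GRCm38 (mm10). A gene annotation was not given in the sources used here. All 6 per-library columns were matched to samples by genotype word and number, and 0 others were present. FPKM is not a count, so no count model was used.

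A mean of 0.5 FPKM or more over the 6 libraries kept 11810 genes. Their log2(FPKM + 1) values were fitted in limma 3.58.1 (R 4.3.3), allowing the variance to follow a trend with the mean, with Benjamini-Hochberg adjustment over all of them, at 0.05. A fold change on that scale understates the change of low genes. The members and lists were chosen with earlier results of these data known. Each library was taken as 1 mouse; the p-values measure the spread between these samples. Values were given per library for members called by either source or without overlap, and for the most abundant of each arm. Of the members changing with a setting, some were given per library and the others by ranges, means or fold changes. Other pathway genes were named where called. Coordinates are from GENCODE M21 (GRCm38), promoters from RefSeq (GRCm38.p6, 32 of 34 members matched). Fragments were estimated from the smallest steps of the values, in genes over 1500 bases, and the longest transcript. The model code was run on simulated data with planted changes, independent libraries and less spread than seen here. That run checks the code and not how the fit handles these libraries.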

Additional observations from a re-analysis of the deposited data

How the results depend on the processing

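In all 18 alternative settings 0 of the 34 members passed limma's threshold; the lowest adjusted p of a member was 0.0539 (Phka2, library weights). In 19 members no setting changed the sign of the fold change. The count of genes called over all genes, 37, was 2 with no filter, 563 with library weights, 77 without control replicate 3 and double knockout replicate 2 together, 158 without replicate 3 of both groups, and 2 to 242 when 1 library was left out: 242 without control replicate 3 and at most 6 without any other library. Other pathway genes past the threshold were 2 with library weights and 1 (Sds) without replicate 3 of both groups. Members without overlap numbered 5 to 10 with 1 library left out. The 10 were without control replicate 3, where 44.7% of all tested genes had no overlap. The share over all genes was not computed for the other libraries left out. Leaving out a library can only keep or raise this count, so the rise is not a result about the members. With 1 library left out the glycogen median was -0.04 to 0.25 and the gluconeogenesis median 0.050 to 0.21; the latter was 0.30 without control replicate 3 and double knockout replicate 2, and 0.013 with the length and GC trend removed, and the former was -0.14 without replicate 3 of both groups. The glycolysis and hexose entry median was -0.31 to -0.047 with 1 library left out and 0.022 with quantile normalization, which also gave 0.033 over all members. Both settings that drop 2 libraries were chosen after seeing the data.

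Some fold changes of members turned sign, all with an adjusted p above 0.05. Quantile normalization gave Gpi1 0.017, Tpi1 0.027, Pgk1 0.039 and Pdha1 0.13. Median-ratio scaling gave Pgam1 -0.0033. Removing the length and GC trend gave Pcx -0.035, Pfkl -0.042, Slc2a2 -0.066 and Pdha1 0.028. Library weights gave Pfkl -0.092, Pgk1 0.075, Pgam1 -0.0073, Ppp1r3g 0.46 and Pdk2 -0.078. Without control replicate 3 and double knockout replicate 2, Pck1 was 0.25, Pgk1 0.25, Gys2 0.15, Ppp1r3g 1.53 and Pdha1 0.064, while Slc2a2 kept its sign at 0.47. Without replicate 3 of both groups, Pfkfb3 was -0.086, Pfkl -0.20, Pgam1 -0.13 and Pdk2 -0.21, while Pdha1 kept its sign at -0.22. With 1 library left out the ranges were -0.25 to 0.18 for Pck1, -0.040 to 0.15 for Pcx, 0.044 to 0.75 for Pfkfb3, -0.16 to 0.18 for Pfkl, -0.36 to 0.15 for Pgk1, -0.07 to 0.11 for Pgam1 and -0.15 to 0.29 for Slc2a2. They were -0.43 to 0.01 for Gys2, -0.99 to 0.27 for Ppp1r3b, -0.60 to 0.37 for Ppp1r3c, -1.77 to 0.98 for Ppp1r3g, -0.11 to 0.17 for Pdk2 and -0.15 to 0.14 for Pdha1. The cause was not tested. Replicate numbers did not clearly pair the libraries. Correlations of their deviations from the group means were 0.22, -0.08 and 0.30 for like numbers. For unlike numbers they ran from -0.32 to 0.25, so the pair of replicate 3 had the highest. With the replicate number as a block 50 genes were called over all genes and 0 members. With 3 mice a group, intervals are wide: an interval that holds 0 does not show that a gene is unchanged.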
